A study of Mus musculus with 21 samples.

Results

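Microglia sorted from wild-type (WT) mice 7 d after a controlled cortical impact were compared with microglia sorted from WT mice 1 d after the same injury. The comparison was defined by genotype, cell type and day as labelled, and it took 6 of the 21 libraries of the series, 3 at each time. It asks which parts of the acute response had fallen by the subacute phase and which genes had risen by then. All mice were adult males on the C57BL/6 background, and the impact was delivered to the exposed cortex through a craniotomy. A tissue block that spanned the lesion was dissociated, live CD45lowCD11b+ cells were sorted (40000 per library), and each library pooled the tissue of 2 mice chosen at random within a genotype and time point. Another 3 libraries came from WT sham controls, which had the craniotomy without the impact, and 6 came from microglia of Fgg390-396A mice at 1 d and 7 d. The labels do not give the time between sham surgery and sampling. Injury and time after surgery therefore cannot be told apart in the values set against sham. The Fgg390-396A allele alters the gamma chain of fibrinogen at the site where the leukocyte integrin CD11b docks. These mice and the sham mice are described below to place the WT values, and the mutant change is tested against the WT change. All 21 libraries were fitted in 1 model. CD45hiCD11b+ infiltrating myeloid cells of WT mice at 1 d, 3 libraries in all, served as a reference for markers of other cells.

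Microglia are the resident macrophages of the brain, and they depend on CSF1 and TGF-beta signals for their resting identity. After injury they lose part of that identity, release chemokines and cytokines, take up debris, and can divide. Interferon-stimulated genes are switched on by transcription factors of the STAT and IRF families downstream of interferon receptors, and a set of lipid-handling and lysosomal genes around Apoe and Trem2 marks microglia that clear myelin and dying cells.

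WT libraries held between 20508605 and 27001646 deposited counts at 7 d and between 23594176 and 36729567 at 1 d, of which 51.0% to 55.7% and 50.6% to 58.5% were ribosomal RNA. Replicate 1 of the 1 d group stood apart from the other two: its ribosomal RNA share was 50.6% against 57.9% and 58.5%, its normalization factor 1.11 against 0.752 and 0.741, and its score on the first principal component 22.97 against 39.24 and 45.27. Levels below are CPM, each gene's share of a library's counts on a fixed total, which compare between genes per length because gene length had been divided out of the counts, and fold changes are log2 values of 7 d over 1 d with their standard errors. A gene was called when its fold change exceeded 1 on the log2 scale and its adjusted p was under 0.05 in edgeR's quasi-likelihood test. Nothing in the labels ties a library to particular animals beyond the pooling of 2 brains, so p-values measure the spread between these pools. In bulk RNA of a sorted population, a smaller share of cells with a transcript and less of it per cell cannot be told apart.

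Of 23815 genes tested, 637 (2.67%) were called higher at 7 d and 1045 (4.39%) were called lower. Among the 12302 genes with a mean of at least 1 CPM the shares were 4.87% and 8.42%, and the libraries of the 2 times did not overlap for 46.4% of them, against 29.4% of all genes tested. Falls made up most of the calls in this test, but that balance depended on the tool: DESeq2 called 1280 genes higher and 1132 lower, so that 53.1% of its calls were higher against 37.9% here. The higher calls also depended on single libraries. Without replicate 3 of the 1 d group 301 genes were called higher and 885 lower, without its replicate 2 there were 330 and 944, and without its replicate 1 there were 904 and 1215.

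Slc39a14, a zinc and manganese importer that also carries iron, had the smallest adjusted p of all (5.14e-07). It stood at 69.1, 71.9 and 70.5 CPM at 1 d and at 9.08, 8.74 and 7.96 CPM at 7 d, a change of -3.04 ± 0.22. The 7 d libraries lay far below the 1 d libraries and still above the sham libraries, which held 3.41, 4.78 and 5.73 CPM. Other falls with the smallest adjusted p were those of cyclooxygenase 2 (Ptgs2), the nuclear transport GTPase Ran, the DNA clamp Pcna and the proteasome subunit Psmb5. The nucleolar protein Nop58, the replicative helicase subunit Mcm4, the growth regulator Pa2g4, the lysosomal amidase Naaa and the RNA-binding protein Ybx3 were also among them. Their changes ran from -1.66 ± 0.16 for Pcna to -5.59 ± 0.50 for Ptgs2.

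The rises with the smallest adjusted p were led by Mpeg1, a pore-forming protein of macrophages that kills engulfed bacteria. It stood at 119, 129 and 142 CPM at 1 d and at 414, 431 and 466 CPM at 7 d, a change of 1.75 ± 0.17 (adjusted p = 6.66e-06). Itm2b, a membrane protein that limits amyloid formation, rose by 1.89 ± 0.18, the selenium carrier Selenop by 2.17 ± 0.22, the cobalamin carrier Tcn2 by 1.44 ± 0.15 and the lysosomal hexosaminidase subunit Hexa by 1.45 ± 0.15. Hacd4, Rcbtb2, Cd300c2, Znrf2 and Apoe completed the first 10. Against sham, their fold changes at 1 d ran from -0.99 for Cd300c2 to -2.37 for Hacd4. At 7 d only Apoe was called against sham (3.71). The others ran from 0.04 for Rcbtb2 to 0.71 for Hacd4 and were not called. Sham libraries held 257.5, 279.3 and 399.6 CPM of Mpeg1.

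**Figure D1:**
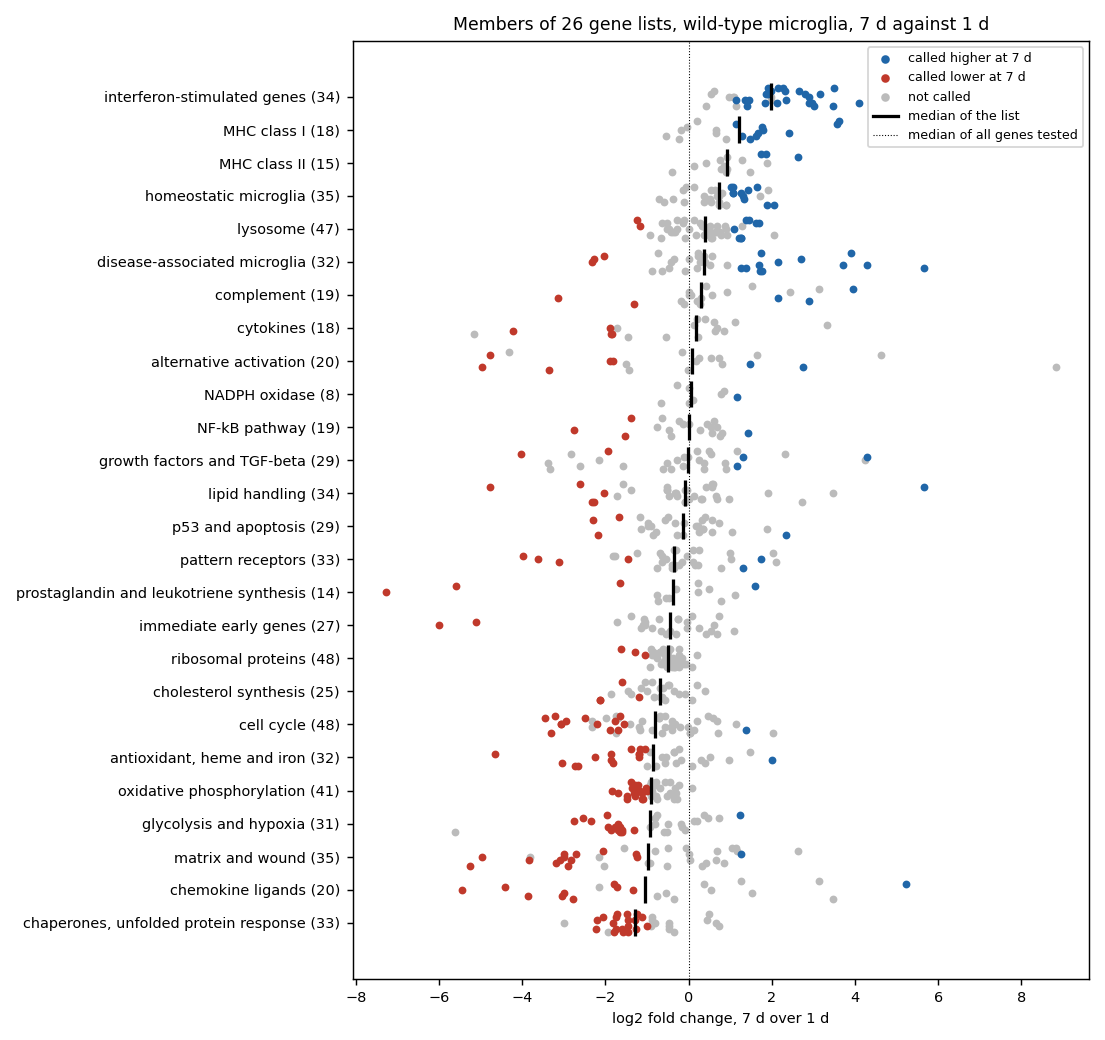
Log2 fold change of 7 d over 1 d in WT microglia (horizontal axis) for each member of 26 gene lists (rows, number tested in brackets). Blue points were called higher at 7 d, red points lower and grey points not called, a black bar marks the median of each list and the dotted line the median of all genes tested. Interferon-stimulated genes lie farthest to the right, with a median of 1.97, and chaperones farthest to the left, with a median of -1.29.

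Genes were then read by list, with the median of all genes tested at 0 as the reference. The reference for a list's calls is the share among genes with a mean of at least 1 CPM, 4.87% higher and 8.42% lower. Values at 1 d against sham and at 7 d against sham are placed beside the lists, and these share libraries with the comparison of 7 d with 1 d. At 1 d against sham 1920 genes (8.06%) were called higher and 1003 (4.21%) lower, and at 7 d against sham 459 (1.93%) were called higher and 22 (0.0924%) lower.

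Chemokine ligands, which draw leukocytes into tissue, had the lowest median after the chaperones. Of 20 members, 9 were called lower at 7 d and 1 was called higher, with a median of -1.05. Ccl12, a monocyte attractant, was the most abundant of those that fell and stood at 2388, 2750.0 and 3005 CPM at 1 d and at 408, 369.8 and 405 CPM at 7 d, a change of -2.78 ± 0.35 (adjusted p = 4.51e-05). Ccl2, the main ligand of CCR2 on monocytes, stood at 175, 250.3 and 276 CPM at 1 d and at 24.6, 29.9 and 30.1 CPM at 7 d (-3.05 ± 0.44). In both genes the groups were well separated, and the 7 d libraries remained above the sham libraries, which held 62, 63.9 and 80.4 CPM of Ccl12 and 11.4, 3 and 3.77 CPM of Ccl2. Ccl7, another CCR2 ligand, fell by 3.86 ± 0.77 and Ccl22, a ligand of CCR4, fell by 3.0 ± 0.59. Ccl3, which binds CCR1, fell by 1.72 ± 0.40, while the call of Ccl4 ended when replicate 2 or replicate 3 of the 7 d group was left out. At 7 d against sham 9 of the 20 ligands were called higher, with a median of 2.36, against 13 and 3.66 at 1 d.

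Cxcl2, a neutrophil attractant, scattered more. It stood at 716, 54.7 and 228 CPM at 1 d and at 14.2, 2.76 and 5.76 CPM at 7 d, a change of -5.46 ± 1.02 (adjusted p = 0.0013). Its 3 libraries at 1 d differed widely among themselves, yet the lowest of them lay above the highest at 7 d. Cxcl3, chosen for its promoter after its values were seen, fell by 4.42 ± 1.00, from 41.7, 4.96 and 15.6 CPM to 0.621, 2.28 and 0 CPM. Ccl17, a CCR4 ligand outside the list, was among the largest falls of all and stood at 13.1, 7.2 and 8.63 CPM at 1 d and at 0, 0 and 0.155 CPM at 7 d. Neutrophil markers summed to between 178.1 and 892.5 CPM at 1 d and between 264.4 and 900.5 CPM at 7 d, against 3647 to 13510 CPM in infiltrating myeloid cells, and replicate 1 had the highest sum at both times. In replicates 2 and 3 at 7 d the sums were 309.4 and 264.4 CPM, of which Csf3r, also high in sham microglia, gave 208.8 and 216.1 CPM. S100a8 held 287.5, 75.6 and 274.1 CPM at 1 d and 241.2, 35.5 and 12.8 CPM at 7 d. The part of neutrophils in the Cxcl2 values was not tested.

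Promoters of the chemokines were searched for the kB site that NF-kB dimers bind, spelled GGGA and TTCC with any 2 bases between them, on either strand in the 250 bases before and 50 bases after each start of transcription. It was present in 4 of 13 ligands with a RefSeq promoter (30.8%), against 1.63% of 27025 genes. Of the 6 called lower 2 held it. Cxcl1 and Cxcl10, named after their values were seen, also held it and were not called. The stretches of Cxcl2 (chr5:90903757-90903857, GRCm38.p6, plus strand) and Cxcl3 (chr5:90785983-90786083, plus strand) are shown because both genes fell and both hold a form that matches on both strands, here in capitals. A match is a description of the sequence and no evidence of binding.
Cxcl2: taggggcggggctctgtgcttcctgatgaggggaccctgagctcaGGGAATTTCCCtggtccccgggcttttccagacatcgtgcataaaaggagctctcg
Cxcl3: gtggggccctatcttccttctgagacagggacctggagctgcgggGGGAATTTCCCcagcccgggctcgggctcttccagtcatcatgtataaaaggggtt

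Cxcl9 was the only ligand of the list called higher. It recruits CXCR3-bearing T cells and is induced by interferon gamma. It stood at 2.02, 0 and 0.546 CPM at 1 d and at 16.7, 51.9 and 27.2 CPM at 7 d, a rise of 5.22 ± 1.02 (adjusted p = 0.00187). All 3 libraries at 7 d lay above those at 1 d and above the sham libraries, which held 0.319, 2.51 and 1.99 CPM. T and NK cell markers summed to 0.977 to 1.985 CPM at 1 d and to 3.106 to 7.031 CPM at 7 d, without overlap, and to 9.213 to 18.14 CPM in infiltrating myeloid cells. The median change of the 13 markers was 0, with 6 above 0 and 4 below, and 5 had 0 counts at each time. Cd3d had 10 counts over the 1 d libraries and 0 over the 7 d libraries, Cd3e 8 and 4, and Cd3g 0 and 0. None of the 13 was called, and the part of T and NK cells in the rise of Cxcl9 was not tested.

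Among cytokines, 4 of 18 members were called lower and 0 higher, and the list's median was 0.17. Il1rn, the natural antagonist of the interleukin 1 receptor, fell most firmly, from 151, 152 and 282 CPM to 8.6, 13.1 and 9.47 CPM (-4.23 ± 0.55, adjusted p = 5.65e-05). The costimulatory ligand Tnfsf9 fell by 1.88 ± 0.34. Tnf stood at 66.2, 51.1 and 46.2 CPM at 1 d and at 9.22, 22 and 14.4 CPM at 7 d, and its call ended without replicate 1 or replicate 3 of the 7 d group. Il1b stood at 144, 33.2 and 66.5 CPM at 1 d and at 35.8, 15.4 and 16.1 CPM at 7 d. Its groups overlapped and its call ended in 5 settings, among them the fit to the 6 compared libraries only. Il1a had a change of -0.55 ± 0.53 and was not called. Without replicate 3 of the 7 d group 2 cytokines were called lower.

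Prostaglandin synthesis was split by enzyme. Ptgs2, the inducible cyclooxygenase, stood at 27.6, 32.2 and 48.5 CPM at 1 d and at 0.908, 0.569 and 0.773 CPM at 7 d (-5.59 ± 0.50, adjusted p = 5.02e-06). Its 7 d libraries were far below those at 1 d, and sham held 0.0956, 0.152 and 0.302 CPM. Ptges, the inducible prostaglandin E synthase, had 400 counts over the 1 d libraries and 2 over the 7 d libraries, a 179.8-fold difference with an exact 95% counting interval of 49.4 to 1490. At 1 d it was at 0.496 CPM in replicate 1 against 5.83 and 8.82 CPM in the others, and its call ended without replicate 2 or replicate 3 of the 7 d group. Pla2g4a, the phospholipase that frees arachidonic acid, fell by 1.65 ± 0.25. Ptgs1, the constitutive cyclooxygenase, was not called (0.48 ± 0.27), and Ltc4s, the leukotriene C4 synthase, rose by 1.59 ± 0.37, a call that ended without replicate 3 of the 1 d group.

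Of 33 pattern receptors 4 were called lower and 2 higher, with a median of -0.35, against 8.42% lower and 4.87% higher among genes with a mean of at least 1 CPM. Cd14, Clec4d and Clec4e of that list are described here beside 4 receptors that are not in it, and the 7 are no list of their own. Msr1, the class A scavenger receptor, stood at 272, 436 and 608 CPM at 1 d and at 17.4, 17.1 and 13.6 CPM at 7 d, a change of -4.77 ± 0.50 (adjusted p = 1.22e-05). Sham held 1.59, 3.27 and 9.88 CPM, so that the 7 d level was nearer to sham than to 1 d. Marco, a related scavenger receptor, stood at 6.45, 10.6 and 19.7 CPM at 1 d and at 0.0956, 0.0813 and 0.0773 CPM at 7 d. Cd14, the co-receptor for lipopolysaccharide, fell from 391, 1028 and 1291 CPM to 125, 94.5 and 93.2 CPM (-3.12 ± 0.46), and C5ar1, the receptor of the complement fragment C5a, fell from 212, 395 and 452 CPM to 51, 32.7 and 35.5 CPM (-3.15 ± 0.34). In each of these genes replicate 1 was the lowest of the 1 d libraries and the groups did not overlap. Clec4d and Clec4e, lectins that sense mycobacterial glycolipids and dead cells, fell by 3.62 ± 0.71 and 3.97 ± 0.86. At 1 d Clec4d held 15.3, 4.09 and 14.8 CPM and Clec4e 30.6, 3.44 and 7.81 CPM, both highest in replicate 1. Infiltrating myeloid cells held 307.2, 272.1 and 539.8 CPM of Clec4d and 264.3, 149.3 and 286.9 CPM of Clec4e. The part of such cells in these 2 falls was not tested. C3ar1, the receptor of C3a, fell by 1.31 ± 0.26.

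Among the other pattern receptors, Tlr2 held 68.7, 96.2 and 89.5 CPM at 1 d and 87.3, 76.8 and 85.6 CPM at 7 d (-0.03 ± 0.26), more than in sham at 23.7, 30.5 and 41.1 CPM. Tlr9, the receptor for unmethylated DNA, rose by 1.74 ± 0.34 from 28.2, 20.4 and 16.4 CPM to 67.2, 74.4 and 75.2 CPM, near its sham level of 70.1, 85.8 and 93.9 CPM. The kinase Irak2 rose by 1.30 ± 0.20.

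Of 35 matrix and wound genes 13 were called lower, 1 was called higher and 21 were not called, with a median of -0.97. Adam8, a metalloprotease of activated myeloid cells, stood at 63.1, 125 and 214 CPM at 1 d and at 4.16, 3.9 and 2.44 CPM at 7 d (-5.26 ± 0.55, adjusted p = 1.22e-05). Tgfbi, an integrin-binding matrix protein induced by TGF-beta, fell by 2.90 ± 0.32 and returned to between 19.5 and 20.02 CPM, within the sham range of 10.4 to 27.8 CPM. Falls were also called for transglutaminase Tgm2 (-3.20 ± 0.41), the syndecan Sdc4 (-3.0 ± 0.38), the hyaluronan receptor Cd44 (-2.99 ± 0.40), the fibronectin receptor chain Itga5 (-2.06 ± 0.31), fibronectin itself (Fn1, -2.71 ± 0.55) and thrombospondin Thbs1 (-3.10 ± 0.55). Timp2, an inhibitor of matrix metalloproteases, went the other way, from 62.2, 70.02 and 67.8 CPM to 169, 154 and 152 CPM (1.25 ± 0.20). Timp1, of the same family, fell from 2.33, 0.76 and 2.58 CPM to 0.0956, 0.0813 and 0 CPM.

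Alternative activation genes were divided, with 5 of 20 called lower and 2 called higher. Arg1, the arginase that competes for the substrate of nitric oxide synthase, stood at 42.3, 5.61 and 20.6 CPM at 1 d and at 0.908, 0.894 and 0.387 CPM at 7 d (-4.97 ± 0.78, adjusted p = 0.000278). Its sham libraries held 0.606, 0.57 and 1.13 CPM, and infiltrating myeloid cells 1988, 1506 and 2449 CPM. Acod1, which makes itaconate, fell by 3.36 ± 0.74, and the interleukin 4 receptor chain Il4ra fell by 1.82 ± 0.23. The interleukin 10 receptor chain Il10ra rose by 1.47 ± 0.24. Arg1 and Acod1 were highest in replicate 1 of the 1 d group, the library with the highest Ccr2, a marker of monocytes (27.8 CPM against 1.99 and 5.27). The part of those cells in the fall was not tested.

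Antioxidant, heme and iron genes were lower in 14 of 32 cases and higher in 1, with a median of -0.85, and without replicate 3 of the 1 d group 9 were called lower. Slc7a11, the cystine importer that feeds glutathione synthesis, stood at 7.67, 7.71 and 28.9 CPM at 1 d and at 0.43, 0.691 and 0.618 CPM at 7 d (-4.65 ± 0.55, adjusted p = 2.7e-05). Heme oxygenase Hmox1, which breaks down heme, stood at 103, 78.7 and 169 CPM and then at 34.8, 25.2 and 36.7 CPM (-1.86 ± 0.29). Thioredoxin (Txn1) fell by 1.87 ± 0.21 and its reductase Txnrd1 by 2.26 ± 0.26. The single rise was Slc40a1, ferroportin, the only known exporter of iron from cells, which stood at 11.1, 4.59 and 5.82 CPM at 1 d and at 30.5, 25.4 and 30.9 CPM at 7 d (2.01 ± 0.34). It thus went opposite to the importer Slc39a14, and its sham level of 46.6, 47.2 and 47.2 CPM was above both. Of the 8 NADPH oxidase genes, the catalytic subunit Cybb held 15.5, 18.7 and 23.6 CPM at 1 d and 16.1, 25 and 21 CPM at 7 d, and the proton channel Hvcn1 was the 1 called, higher by 1.17 ± 0.28, a call that ended without replicate 3 of the 1 d group.

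Chaperones and genes of the unfolded protein response had the lowest median of the 26 lists, -1.29, with 19 of 33 members called lower and 0 higher. Hspa5, the main chaperone of the endoplasmic reticulum, stood at 1020.0, 1567 and 1556 CPM at 1 d and at 421, 277 and 298 CPM at 7 d (-2.06 ± 0.25, adjusted p = 3.27e-05). Manf, which is secreted when that compartment is under stress, fell from 146, 224 and 232 CPM to 57.7, 29.9 and 43.1 CPM (-2.20 ± 0.24). Creld2 fell by 2.22 ± 0.27 and the disulfide isomerase Pdia4 by 1.73 ± 0.22. Mitochondrial chaperones moved with them, Hspa9 by -1.58 ± 0.20 and Hspd1 by -1.75 ± 0.23. The 7 d libraries of these genes lay close to sham: the list's median at 7 d against sham was 0.03 with 1 member called, against 1.57 with 22 members called at 1 d. Ddit3, a transcription factor of severe reticulum stress, had 6.34, 5.72 and 7.57 CPM at 1 d and 10.1, 11.8 and 10.9 CPM at 7 d (0.74 ± 0.49, not called), and the heat shock gene Hspa1a was not called (0.66 ± 0.68).

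The endoplasmic reticulum stress element, spelled CCAAT and CCACG with any 9 bases between them and searched on both strands, was present in 6 of 28 members with a promoter (21.4%) against 0.137% of 27025 genes, and in 5 of 14 called lower. The stretches of Creld2 (chr15:88819475-88819583, GRCm38.p6, plus strand) and Hspa5 (chr2:34771980-34772088, plus strand) are shown because these called members hold it, with the element in capitals. Creld2 carries it on the other strand.
Creld2: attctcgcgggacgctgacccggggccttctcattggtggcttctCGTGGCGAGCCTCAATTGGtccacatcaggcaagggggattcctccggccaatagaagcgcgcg
Hspa5: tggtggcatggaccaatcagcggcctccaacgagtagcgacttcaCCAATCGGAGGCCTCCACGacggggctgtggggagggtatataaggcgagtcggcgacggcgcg

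Of 31 glycolysis and hypoxia genes, 14 were called lower, 1 higher and 16 were not called (median -0.93). Of 41 nuclear-encoded subunits of oxidative phosphorylation, 17 were called lower, 0 higher and 24 were not called (median -0.91). Pkm, pyruvate kinase, stood at 168, 329 and 395 CPM at 1 d and at 49.5, 57.5 and 45 CPM at 7 d (-2.55 ± 0.32, adjusted p = 4.25e-05). Pgk1 fell by 2.35 ± 0.28, Ldha by 1.70 ± 0.23, Gapdh by 1.64 ± 0.21 and the glucose transporter Slc2a1 by 1.65 ± 0.25, and at 7 d Gapdh, at 666, 673 and 590.0 CPM, was still above sham at 325, 326 and 390.4 CPM. The exception was Pfkfb4, which sets the level of the glycolytic activator fructose 2,6-bisphosphate and rose by 1.23 ± 0.27. Hk2 was not called (0.38 ± 0.26). In respiration, cytochrome c (Cycs) fell from 42.9, 54.2 and 59.96 CPM to 15.2, 16.8 and 11.9 CPM (-1.84 ± 0.26), the ATP synthase subunit Atp5b by 1.47 ± 0.22 and the cytochrome oxidase subunit Cox7b by 1.49 ± 0.21. The respiratory list was at 0.30 against sham at 7 d and at 1.30 at 1 d.

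Of 48 cytosolic ribosomal protein genes only Rps2, Rpl8 and Rpsa were called lower, with a list median of -0.50. Rps2 stood at 785, 1050.0 and 1168 CPM at 1 d and at 362, 288 and 324 CPM at 7 d (-1.62 ± 0.21, adjusted p = 4.83e-05). Rpl3 had a change of -0.53 ± 0.16, under the bar on the fold, and against sham 26 of the 48 were called higher at 7 d, with a median of 1.02. Rpl8 lost its call in DESeq2, with DESeq2's size factors and without replicate 2 of the 7 d group. Without replicate 1 of the 1 d or of the 7 d group, 6 and 7 ribosomal genes were called lower.

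Of 48 cell cycle genes 13 were called lower, 1 was called higher and 34 were not called, with a median of -0.80. Those called lower were the helicase subunits Mcm2, Mcm3, Mcm4, Mcm5, Mcm6 and Mcm7, the clamp Pcna, cyclins Ccnd1 and Ccne2, the factors E2f1 and Uhrf1, and the nucleotide enzymes Rrm1 and Tyms. Mcm3, Mcm7, Ccne2, E2f1, Uhrf1, Rrm1 and Tyms were named after their values were seen. Mcm6 stood at 40.5, 45.6 and 40.2 CPM at 1 d and at 3.97, 5.2 and 3.48 CPM at 7 d (-3.32 ± 0.38, adjusted p = 2.36e-05). Mcm2 fell by 3.06 ± 0.34, Mcm5 by 3.21 ± 0.47, Mcm4 by 2.5 ± 0.25 and Ccnd1 by 1.69 ± 0.23. The groups of these 5 genes did not overlap. In sham Mcm6 held 4.18, 1.29 and 3.17 CPM, near its 7 d level, while Mcm2 was still above sham at 7 d (1.53, adjusted p = 0.0152). Leaving out any 1 WT library kept the count at 13.

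Mki67, Top2a and Cdk1, the first 3 genes of the list, overlapped between the times. Mki67 held 17.4, 8.36 and 4.22 CPM at 1 d and 6.02, 11.7 and 6.34 CPM at 7 d (-0.32 ± 0.51), Top2a held 22.7, 11.8 and 6.29 CPM and then 5.4, 11.2 and 5.49 CPM (-0.88 ± 0.58), and Cdk1 had a change of -0.63 ± 0.60. None of the 3 was called. The 1 rise, of the centromeric histone Cenpa (1.39 ± 0.40), from 3.32, 1.16 and 1.29 CPM to 6.45, 3.74 and 4.95 CPM without overlap, ended when any 1 of 4 WT libraries was left out. Whether the changes of these genes differed from those of the genes called lower was not tested.

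The E2F site was searched as TTTCCCGC or TTTGGCGC on both strands. It was present in Mcm3, Mcm5, Mcm6 and Mcm7, which were 4 of 40 members with a promoter (10.0%) and 4 of 10 called lower, against 1.8% of 27025 genes. The stretches of Mcm6 (chr1:128359706-128359860, GRCm38.p6, minus strand) and Mcm5 (chr8:75109315-75109412, plus strand) are shown because these subunits of 1 complex fell together and both hold it, Mcm6 at 2 places and Mcm5 on the other strand. Capitals mark it.
Mcm6: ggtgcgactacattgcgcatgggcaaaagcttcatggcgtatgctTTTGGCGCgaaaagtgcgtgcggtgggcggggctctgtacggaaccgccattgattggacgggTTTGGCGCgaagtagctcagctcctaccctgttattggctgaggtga
Mcm5: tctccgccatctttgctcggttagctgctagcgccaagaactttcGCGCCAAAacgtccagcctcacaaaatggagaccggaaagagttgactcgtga

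**Figure D2:**
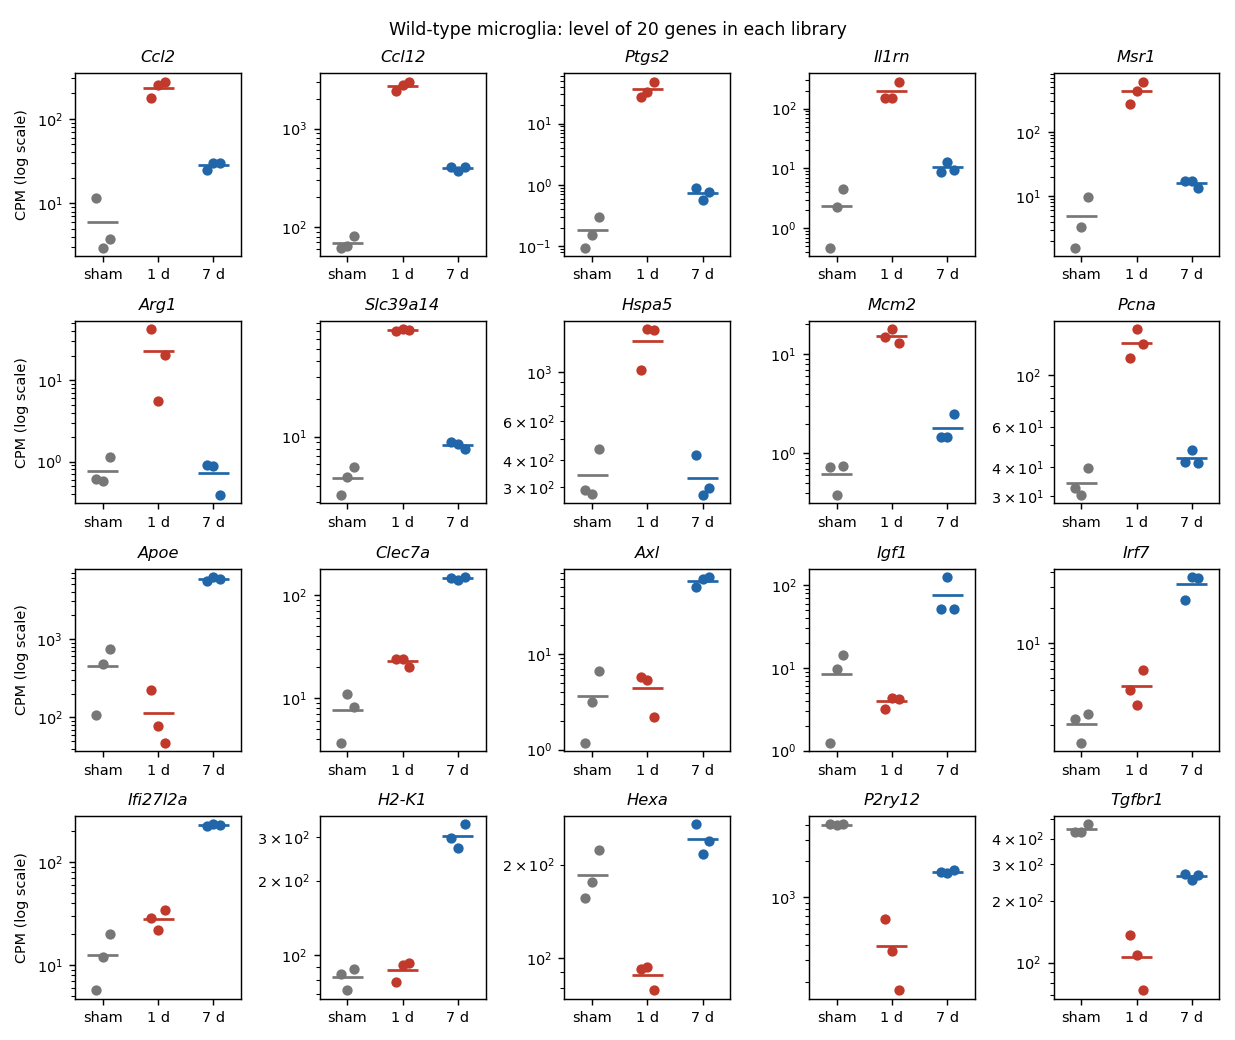
Level of 20 genes in each WT microglia library in CPM (vertical axis, log scale) for sham, 1 d and 7 d. Points are libraries, 3 per group, and bars are group means. The 1 d and 7 d points do not overlap in any of the 20 genes, and for Irf7, H2-K1 and Apoe the 7 d points lie above both other groups.

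Interferon-stimulated genes had the highest median of the 26 lists. Of 34 members 25 were called higher at 7 d and 0 lower, with a median of 1.97. At 1 d the list stood near sham (median 0.28, with 8 called higher and 1 lower), and at 7 d it stood above sham by a median of 3.09 with 25 called higher. Ifi27l2a, a small membrane protein induced by interferon, held 28.8, 22 and 33.8 CPM at 1 d and 221, 232 and 231 CPM at 7 d (3.01 ± 0.50, adjusted p = 0.000496). Irf7, the factor that amplifies type I interferon production, stood at 3.97, 2.97 and 5.86 CPM and then at 23.1, 36.6 and 36.1 CPM (2.90 ± 0.52). The groups did not overlap in either gene, and replicate 1 was the lowest of the 7 d libraries in Irf7. Stat2, a transcription factor downstream of type I interferon receptors, rose by 1.84 ± 0.33, the RNA sensor Ddx58 (RIG-I) by 2.13 ± 0.35, Parp14 by 1.90 ± 0.29 and Ifit3b, a member of a family that binds foreign RNA, by 3.50 ± 0.64. Ifi213, a DNA-sensing family member outside the list, rose by 4.48 ± 0.74. Ifit3b and Ifit3, and the Oas and Gbp genes, have close copies between which reads could be split, so the value of a single member is uncertain.

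Some members were already up at 1 d. Ifit1 held 2.18, 4.56 and 4.61 CPM at 1 d and 5.16, 8.54 and 9.89 CPM at 7 d (1.06 ± 0.59, not called), and Isg15 held 13.6, 19.9 and 21.4 CPM and then 23, 57.3 and 37.4 CPM (1.10 ± 0.56, not called). In sham Isg15 held 3.7, 2.51 and 7.06 CPM. The count of 25 depended on replicate 2 of the 1 d group, without which 12 members were called, while leaving out another WT library gave up to 23 and the other settings gave 25 to 29.

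The interferon-stimulated response element, spelled GAAA and GAAAC with any 2 bases between them and searched on both strands, was present in 14 of 24 members with a promoter (58.3%), against 0.944% of 27025 genes, and in 8 of the 16 called higher. The stretches of Stat2 (chr10:128270248-128270330, GRCm38.p6, plus strand) and Ifit3b (chr19:34607723-34607857, plus strand) are shown because these members of the list rose and hold it, Ifit3b at 2 places. In both genes it reads on the other strand, and capitals mark it.
Stat2: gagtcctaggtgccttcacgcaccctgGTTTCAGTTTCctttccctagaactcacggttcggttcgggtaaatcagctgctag
Ifit3b: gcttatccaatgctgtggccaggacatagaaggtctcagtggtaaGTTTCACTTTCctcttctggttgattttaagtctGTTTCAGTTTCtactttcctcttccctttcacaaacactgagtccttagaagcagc

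MHC class I genes present peptides to CD8 T cells. Of 18 members 10 were called higher and 0 lower, with a median of 1.21, and leaving out 1 WT library gave 8 or 9. H2-K1 stood at 78, 91.6 and 93.5 CPM at 1 d and at 298, 271 and 336 CPM at 7 d (1.78 ± 0.22, adjusted p = 4.32e-05), and its sham libraries held 84.2, 72.3 and 88.3 CPM. H2-D1 rose by 1.67 ± 0.24, H2-T23 by 1.63 ± 0.24 and the shared light chain B2m by 1.47 ± 0.23, from 2472, 3099 and 3273 CPM to 8450.0, 7714 and 8298 CPM. At 1 d the list lay at sham level (median 0.20, 1 called). H2-K1, H2-D1 and the H2-Q genes are near-identical in part, so that their separate values are uncertain.

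MHC class II genes had fewer calls. Of 15 members H2-Oa, H2-Ob and H2-Aa were called higher, with a median of 0.92. H2-Oa and H2-Ob form H2-O, which restrains peptide loading, and rose by 2.63 ± 0.44 and 1.87 ± 0.36 back to sham levels, as in H2-Oa with 4.08, 2.06 and 1.8 CPM at 1 d, 19.2, 12 and 18.1 CPM at 7 d and 20.3, 18 and 16.5 CPM in sham. H2-Aa stood at 59.4, 20.6 and 11 CPM at 1 d and at 67.9, 130.4 and 104 CPM at 7 d, and its call ended in 10 settings. Cd74, the invariant chain, was not called (0.92 ± 0.33). Replicate 1 of the 1 d group was highest in H2-Aa and in Cd74, and without it 6 members were called higher. That library also held the highest monocyte and macrophage marker sum of its group, and the part of those cells was not tested.

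Disease-associated microglia genes split in 2 directions. Of 32 members 12 were called higher and 3 lower, with a median of 0.38. Apoe, the lipid carrier of the brain, stood at 221, 78.5 and 47.6 CPM at 1 d and at 5544, 6177 and 5736 CPM at 7 d (5.65 ± 0.66, adjusted p = 2.6e-05). Sham held 108, 476 and 754 CPM, and Apoe was called lower than sham at 1 d (-1.95, adjusted p = 0.0203) and higher at 7 d (3.71, adjusted p = 0.00159). Apoc1, a small apolipoprotein encoded beside Apoe (chr7:19689481-19692660 and chr7:19696109-19699188, GRCm38), had 0 counts in the 3 libraries at 1 d and 3759 at 7 d, which against a floor of 3 counts over the group is at least 1394-fold higher. At 7 d it held 55.3, 66.5 and 37.2 CPM and in sham 0.223, 4.44 and 0.804 CPM.

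Others of the set rose from low levels. Clec7a, the beta-glucan receptor dectin-1, stood at 24.1, 23.9 and 20.3 CPM at 1 d and at 148, 143 and 152 CPM at 7 d (2.69 ± 0.33). Axl, a receptor for phosphatidylserine-bound ligands on dying cells, stood at 5.73, 5.32 and 2.19 CPM and then at 49.6, 61 and 63.8 CPM (3.72 ± 0.52). Igf1, a growth factor for neurons and oligodendrocytes, stood at 3.17, 4.38 and 4.25 CPM and then at 51.7, 126 and 51.2 CPM (4.28 ± 0.69), with replicate 2 the highest. Gpnmb, a membrane glycoprotein of phagocytes, rose by 3.90 ± 0.61, the integrin Itgax by 2.15 ± 0.36 and the cysteine protease inhibitor Cst7 by 1.72 ± 0.39. In these 6 genes every 7 d library was above every 1 d library.

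Lgals3, Ch25h and Lpl of the same list fell. Galectin 3 (Lgals3) stood at 65.8, 89.5 and 204 CPM at 1 d and at 25.9, 26.7 and 21.8 CPM at 7 d (-2.27 ± 0.44, adjusted p = 0.00168). The lipase Lpl stood at 272, 338 and 491 CPM and then at 77.8, 114 and 77.1 CPM (-2.03 ± 0.52), still above sham at 4.49, 5.2 and 6.33 CPM. The call of Lpl ended without replicate 3 of the 1 d group or without replicate 1 or 3 of the 7 d group, that of Ch25h without replicate 3 of the 7 d group, and without the latter library 1 member was called lower. Trem2, the lipid receptor of this state, was not called (0.93 ± 0.30) and held 203.5, 186.1 and 153.0 CPM at 1 d and 429.2, 275.5 and 332.4 CPM at 7 d. Spp1, osteopontin, was not called either (-0.87 ± 0.49) and stayed far above its sham level at both times. Trem2 and Spp1 were named after their values were seen. At 7 d against sham 21 of the 32 were called higher, with a median of 1.78, and at 1 d 16 with a median of 1.12.

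Monocyte and macrophage markers had a higher sum at 7 d, but of the 12 only 1 was called higher and 1 lower. By library, their median log2 level against sham overlapped between 1 d (1.324, -0.158 and -0.006) and 7 d (1.234, 0.747 and 0.518). Their 12 members summed to 166.3 to 510.3 CPM at 1 d, 750.7 to 948.6 CPM at 7 d, 87.27 to 426 CPM in sham and 5564 to 7107 CPM in infiltrating myeloid cells. Most of the sum was lysozyme Lyz2, which activated microglia also make and which is a member of the disease-associated list. It stood at 426, 144 and 146 CPM at 1 d and at 886, 809 and 703 CPM at 7 d (1.74 ± 0.47), a call that ended without replicate 2 or 3 of the 1 d group or replicate 1 of the 7 d group. Ccr2 held 10.7, 11.8 and 12.2 CPM at 7 d against 475, 320.5 and 260.1 CPM in infiltrating cells and was not called, and Ccr1 was lower at 7 d (-1.70 ± 0.34). Apoe at 7 d, at 5544 CPM or more in each library, was above infiltrating myeloid cells at 1 d, which held 2093, 1624 and 1044 CPM. The authors sorted infiltrating cells at 1 d only, so the series gives no level for such cells at 7 d. The part of infiltrating cells in the rise was not tested.

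Lipid handling genes had few calls, with 5 of 34 called lower, 1 higher and a median of -0.08. The 5 were Msr1, Lgals3, Ch25h, Lpl and Cd36, and without replicate 3 of the 1 d group, or replicate 1 or 3 of the 7 d group, 3 were called. The lipid exporter Abca1 was not called, at 55.7, 97.3 and 110.2 CPM and then 78.3, 89.8 and 81 CPM (-0.08 ± 0.27). Cholesterol synthesis fell in 4 of 25 members, with a median of -0.70, led by squalene epoxidase Sqle, which stood at 5, 6.77 and 5.5 CPM at 1 d and at 1.29, 1.06 and 1.62 CPM at 7 d (-2.12 ± 0.33). Fdps and Cyp51 of the same pathway fell by 1.60 ± 0.36 and 1.20 ± 0.28.

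Lysosomal genes rose in 8 of 47 cases and fell in 2, with a median of 0.40, and without replicate 2 or without replicate 3 of the 1 d group 5 were called higher. Hexa, which degrades gangliosides, stood at 92.2, 93.8 and 78.7 CPM at 1 d and at 269, 217 and 238 CPM at 7 d (adjusted p = 1.05e-05). Cathepsin D (Ctsd) went from 801, 924 and 849 CPM to 3025, 2674 and 2680.0 CPM (1.70 ± 0.22), the mannosidase Man2b1 rose by 1.62 ± 0.19, the sphingolipid activator Psap by 1.25 ± 0.18 and cathepsin H (Ctsh) by 1.25 ± 0.21. In sham Ctsd held 1326, 1357 and 2422 CPM, between the 2 times. Hexa, Man2b1, Psap and Ctsh were below sham at 1 d (-0.78 to -1.20) and not called against it at 7 d (0.38 to 0.48). The list's median against sham was -0.02 at 1 d, with 8 called higher and 5 lower. At 7 d it was 0.38, with 3 called higher and 0 lower. Cathepsin C (Ctsc), which activates granule proteases, fell by 1.18 ± 0.22. The membrane protein Lamp1 passed the adjusted p but not the bar on the fold (0.77 ± 0.17).

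Homeostatic microglia genes rose in 11 of 35 cases and fell in 0, with a median of 0.73. P2ry12, the ADP receptor that guides microglial processes to injury, stood at 659, 357 and 169 CPM at 1 d, at 1612, 1595 and 1695 CPM at 7 d and at 4021, 3954 and 4021 CPM in sham. It rose by 2.05 ± 0.44 (adjusted p = 0.00385) and was lower than sham by 3.34 on the log2 scale at 1 d (adjusted p = 3.31e-05). At 7 d its change from sham was -1.29 and did not pass the test (adjusted p = 0.151), although the libraries did not overlap. Tgfbr1, the TGF-beta receptor that maintains this identity, stood at 136, 109.5 and 73.3 CPM and then at 271, 252 and 266 CPM (1.30 ± 0.22), with sham at 432, 432 and 468 CPM. The ectonucleotidase Entpd1 rose by 1.88 ± 0.30, the lectin Siglech by 1.65 ± 0.37 and the selectin ligand Selplg by 1.43 ± 0.28.

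Other members of the homeostatic list gave a less firm picture. Cx3cr1, the fractalkine receptor, held 422, 511 and 417 CPM at 1 d and 469.8, 499.6 and 497 CPM at 7 d (0.12 ± 0.26). Tmem119 held 194, 151 and 93.7 CPM and then 272, 225 and 229 CPM, and was not called (0.73 ± 0.27). The calls of Sall1, the transcription factor of microglial identity, and of Gpr34 ended without several of the WT libraries, and without replicate 3 of the 1 d group or replicate 1 of the 7 d group 6 members were called higher. The list lay below sham by a median of 1.33 at 1 d, with 23 called lower, and by 0.63 at 7 d, with 4 called lower. Microglia markers summed to 4416 to 5874 CPM at 1 d, 7904 to 8726 CPM at 7 d, 11830 to 13690 CPM in sham and 611.6 to 1087 CPM in infiltrating myeloid cells, and within the 1 d group P2ry12 was highest in replicate 1.

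**Figure D3:**
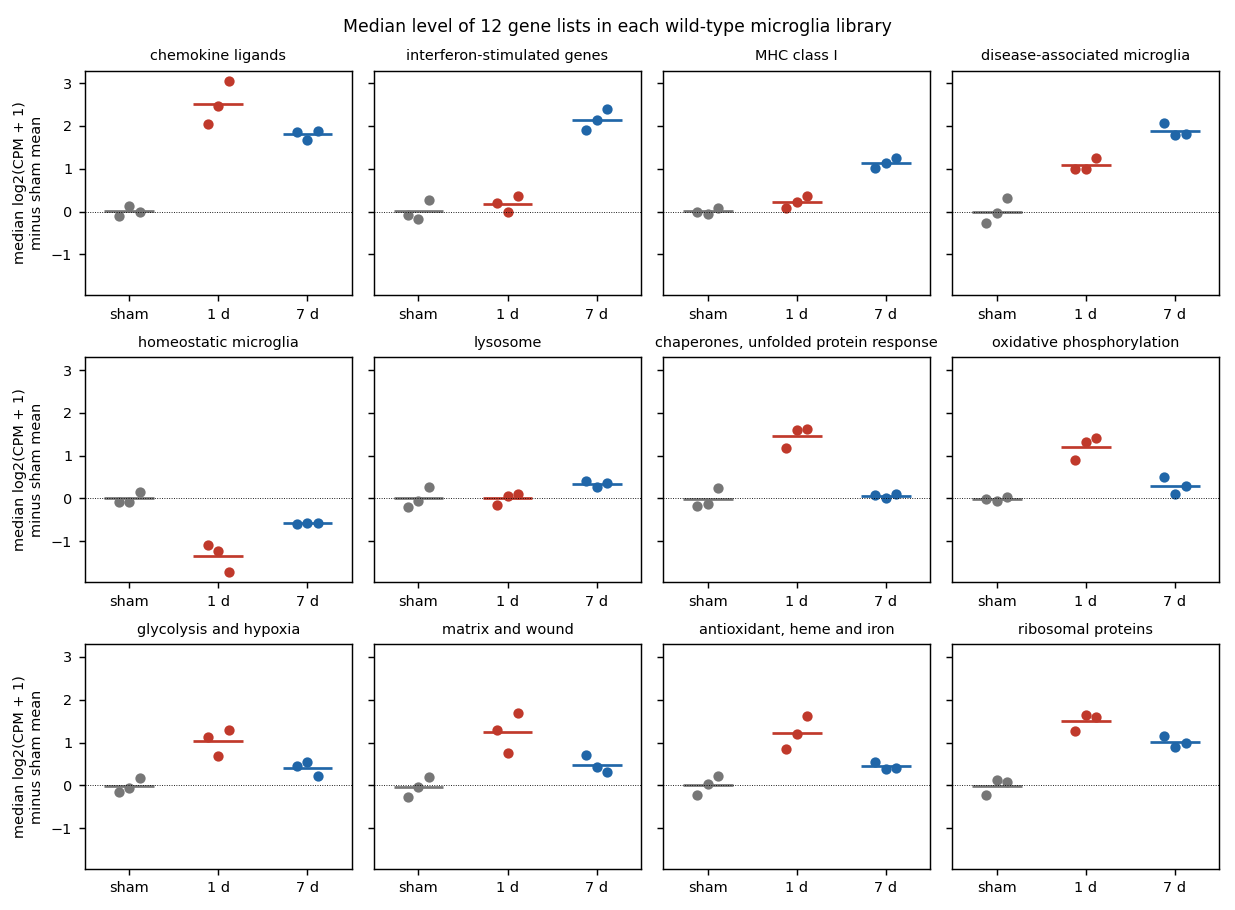
Level of 12 gene lists in each WT microglia library, as the median over members of log2(CPM + 1) minus its mean in sham (vertical axis), for sham, 1 d and 7 d. Points are libraries, 3 per group, and bars are group means. Interferon-stimulated genes are between -0.011 and 0.369 at 1 d and between 1.901 and 2.399 at 7 d, while homeostatic genes lie lowest at 1 d and between the other groups at 7 d.

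Promoters of 8 lists were searched for 13 spellings of known motifs, and those shown above were chosen after the matches were seen. In lysosomal promoters TCACGTGA, the core of the CLEAR element bound by TFEB, was present in 7 of 36 members (19.4%) against 1.12% of all genes, and with G before it and C after it in 1 (2.78% against 0.37%). ACGTG, the core of the hypoxia response element, was present in 21 of 28 glycolysis and hypoxia promoters (75.0% against 21.8%), and TGACNNNGC, the antioxidant response element, in 9 of 25 antioxidant promoters (36% against 14%). Its looser form TGANNNNGC was in 14 of 25 (56.0% against 45%), TCACNCCAC, the sterol regulatory element, in 1 of 18 cholesterol synthesis promoters (5.56% against 1.44%) and TGANTCA, the AP-1 site, in 3 of 13 chemokine promoters (23.1% against 8.97%). A shorter interferon element, without the last C, was in 16 of 24 interferon-stimulated promoters (66.7% against 3.99%), and a looser kB site, GGG and TTCC with any 3 bases between them, in 5 of 13 chemokine promoters (38.5% against 6.31%). The shorter and looser forms contain the longer ones, and both strands were read throughout.

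Complement genes went both ways, with 3 of 19 called higher and 2 lower. Factor B (Cfb), of the alternative pathway, stood at 0.802, 0.109 and 0.507 CPM at 1 d and at 5.35, 9.71 and 6.92 CPM at 7 d (3.95 ± 0.91), and C4b rose by 2.89 ± 0.69, a call that ended without replicate 3 of the 1 d group. C1qa, the most abundant complement gene named here, was not called and held 1384, 1743 and 1559 CPM and then 2039, 1768 and 1876 CPM. C3 was not called (1.53 ± 0.75). The receptors C5ar1 and C3ar1 were the 2 that fell.

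Growth factor, cell death and transcription lists had fewer calls, to be set beside 4.87% called higher and 8.42% lower among genes with a mean of at least 1 CPM. Of 29 growth factor and TGF-beta genes Smad7, Igf1 and Tgfbr1 rose and Inhba and Vegfa fell, with a list median of -0.01. The median of the p53 and apoptosis list was -0.14. Inhba, a subunit of activin A, stood at 8.05, 0.905 and 4.14 CPM at 1 d and at 0.239, 0.203 and 0.348 CPM at 7 d (-4.02 ± 0.94), and Vegfa lost its call in 5 settings. Tgfb1 was not called (0.36 ± 0.14). Among 29 p53 and apoptosis genes the cell cycle inhibitor Cdkn1a fell from 542, 747 and 979 CPM to 159, 178 and 158 CPM (-2.19 ± 0.37, adjusted p = 0.00049), Ripk3, the kinase of necroptosis, fell by 2.29 ± 0.44, Bcl2a1d fell by 1.68 ± 0.33 and Trp53inp1 rose by 2.35 ± 0.46. Mdm2, another target of p53, was not called (-0.28 ± 0.17).

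Of 19 NF-kB pathway genes 3 were called lower and 1 higher, with a median of 0.02, and without replicate 2 of the 7 d group 1 was called lower. The inhibitor Nfkbia held 17.1, 14 and 20.4 CPM at 1 d and 16.6, 12.1 and 15.2 CPM at 7 d. The rise of Nfkbie rested on replicate 2 of the 7 d group, at 55.3 CPM against 12.2 and 14.4 CPM in the others. Immediate early genes had 2 calls in 27, Fosl1 (-5.99 ± 0.90) and the phosphatase Dusp5 (-5.12 ± 0.86), both lower, while Fos, Jun and Egr1 were not called. Markers of dissociation stress summed to 1015 to 1196 CPM at 1 d and 692.2 to 868.8 CPM at 7 d, with Socs3 the 1 of 15 that was called.

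Markers of other cells were summed over their lists in each library. Border macrophage markers summed to 134.9 to 240 CPM at 1 d and 179.7 to 278.6 CPM at 7 d, against 1661 to 2684 CPM in infiltrating myeloid cells, and Folr2, 1 of the 10, rose by 2.74 ± 0.62. B cell markers summed to 64.13 to 137.3 CPM and 185 to 267.3 CPM without overlap, against 28.76 to 65.18 CPM in infiltrating myeloid cells and 186.8 to 254.7 CPM in sham. Most of the sum was Ighm, the 1 member called (1.13 ± 0.27). Cd79b, a chain of the B cell receptor complex, held 4.66, 6.15 and 2.89 CPM and then 8.55, 13 and 9.66 CPM, which did not overlap, Cd79a held 0.115, 0.0362 and 0 CPM and then 0.0956, 0.325 and 0.232 CPM, and Ms4a1, named after its values were seen, was at 0 at 1 d and at 0 to 0.0773 CPM at 7 d. Neuron markers lay at 3.512 to 5.645 CPM and 3.208 to 4.999 CPM, astrocyte markers at 13.62 to 21.57 CPM and 34.59 to 37.03 CPM, and oligodendrocyte markers at 25.19 to 48.83 CPM and 50.47 to 81.16 CPM. In sham the astrocyte sum was 45.18 to 54.5 CPM, above both times, and the oligodendrocyte sum was 25.31 to 32.46 CPM, below the 7 d libraries. In the astrocyte list Slc1a3, which microglia also express, rose by 1.48 ± 0.27 and Gfap was not called (-0.48 ± 0.74). Csf3r was the 1 neutrophil marker called (1.83 ± 0.26), at 68.75, 50.55 and 57.15 CPM at 1 d and 204, 209 and 216 CPM at 7 d. Sham microglia held 158, 160 and 187 CPM of Csf3r and infiltrating myeloid cells 191, 116 and 279 CPM. S100a8 and S100a9 were not called. Dendritic cell markers summed to 3.669 to 8.589 CPM at 1 d and 6.069 to 13.86 CPM at 7 d, against 61.27 to 84.34 CPM in infiltrating cells, and none of the 6 was called, with a median of 1.17. Endothelial and pericyte markers summed to 7.863 to 19.6 CPM and 5.591 to 9.546 CPM, and of the 8 Kdr was called higher (1.74 ± 0.47) and Pecam1, which leukocytes also carry, lower (-1.64 ± 0.49). Red cell markers summed to 0.181 to 35.6 CPM at 1 d, the highest in replicate 1, and to 0.58 to 2.07 CPM at 7 d, and none of the 5 was called. The part of these cells in the changes above was not tested.

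The same 7 d against 1 d comparison in Fgg390-396A microglia, which shares no library with the WT comparison, called 158 genes higher (0.663%) and 686 lower (2.88%), or 3.54% in all. Of the 637 genes higher in WT 140 were also called higher in the mutant (22% of the WT list and 88.6% of the mutant list), and of the 1045 lower in WT 581 were also called lower (55.6% and 84.7%). No gene was called in opposite directions. Chaperone genes fell by similar medians, -1.29 in WT and -1.16 in the mutant, with 19 and 18 called lower. Interferon-stimulated genes had a median of 1.97 with 25 called higher in WT and a median of 0.88 with 2 called higher in the mutant. Homeostatic genes had a median of 0.73 with 11 called in WT and 0.42 with 0 called in the mutant, where their 1 d levels were higher. Microglia markers summed to 5926 to 7308 CPM at 1 d in the mutant and 4416 to 5874 CPM in WT. At 7 d they summed to 8421 to 9717 CPM and 7904 to 8726 CPM. P2ry12 held 1632, 724 and 727.5 CPM at 1 d in the mutant and 2433, 2227 and 2115 CPM at 7 d. The difference between genotypes within a day was not tested.

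The difference between genotypes in the change was then tested for each gene. By edgeR's interaction test 0 of 23815 genes passed an adjusted p of 0.05, and 653 (2.74%) had an unadjusted p under 0.05. DESeq2 called 25 of the 17352 genes it gave an adjusted p (0.144%). The difference between the medians of the lists was not tested. In the mutant, Irf7 stood at 5.52, 3.3 and 17.1 CPM at 1 d and at 26.4, 11.1 and 14.6 CPM at 7 d, and Isg15 at 17.9, 8.81 and 64.6 CPM and then at 39.8, 18.5 and 18.8 CPM. Replicate 3 of the mutant 1 d group was the highest of its group in both genes. Apoe rose in the mutant from 313, 138 and 159 CPM to 2279, 3340.0 and 3278 CPM (3.87, adjusted p = 0.00065), and Slc39a14 fell by 3.46 on the log2 scale (adjusted p = 6.92e-08).

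**Figure D4:**
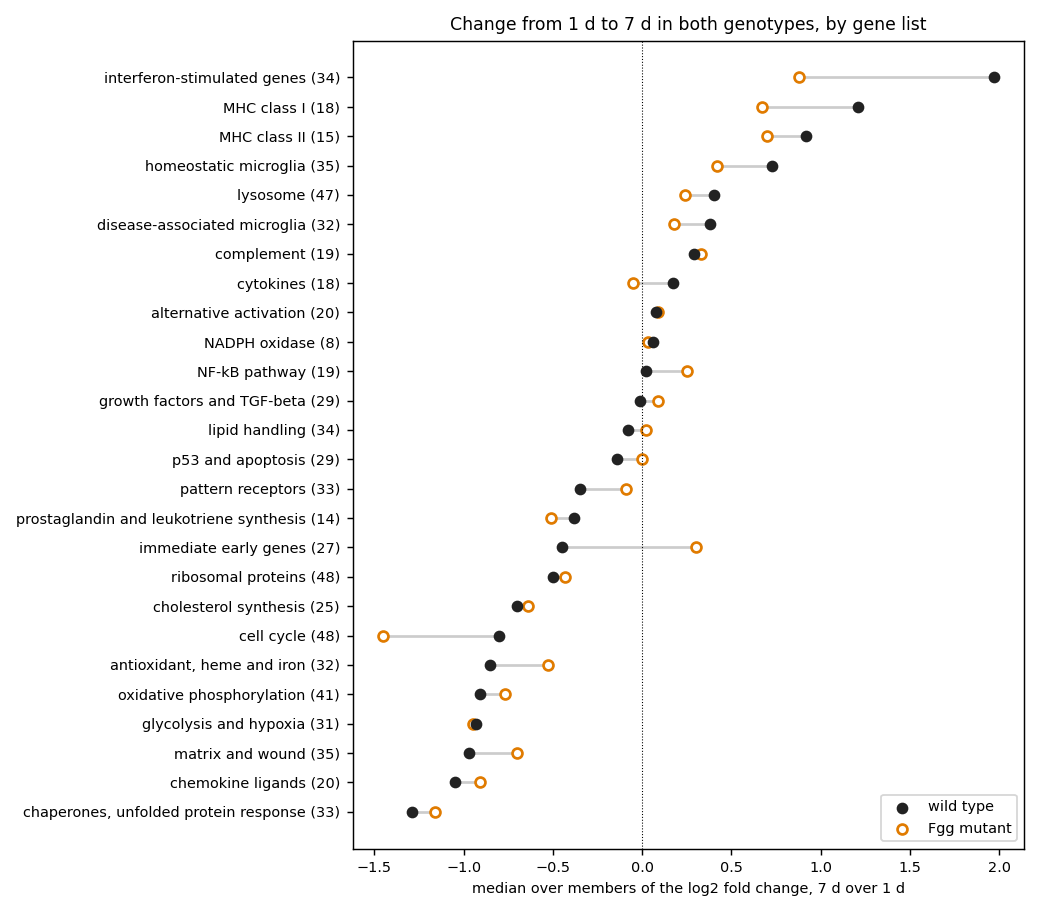
Median over members of the log2 fold change of 7 d over 1 d (horizontal axis) for 26 gene lists (rows, number tested in brackets), in WT microglia (filled points) and Fgg390-396A microglia (open points). The median of interferon-stimulated genes is 1.97 in WT and 0.88 in the mutant, and that of chaperones is -1.29 and -1.16. The medians carry no test.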

How the data were processed

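Deposited values were expected counts per gene that the authors estimated with salmon from reads aligned with STAR to the mouse genome and scaled from abundances, so that gene length was divided out. The submitters' processing notes name R 4.2.0 and DESeq2 1.36.0. The library kit does not mark strand, so a gene and an antisense partner cannot be told apart. Counts of 45706 identifiers were rounded, 45143 were matched to GENCODE M21, and 23815 genes with at least 5 counts over all 21 libraries were fitted with edgeR 4.0.16 (R 4.3.3), with 1 mean per group, TMM factors and the quasi-likelihood test with Benjamini-Hochberg adjustment. SE was the absolute fold change over the square root of F. CPM used TMM-scaled totals, and 3 counts corresponded to 0.1086 to 0.1434 CPM in the 6 libraries. Intervals and floors cover counting error only. Counts were refitted with DESeq2 1.42.0 and with the alternatives given in the closing section. With 3 against 3 libraries an exact permutation test cannot go below 0.1, so no single gene was tested that way.

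Named genes were the 10 with the smallest adjusted p and the 5 with the largest fold in each direction (called, not overlapping, the latter at 5 CPM or more), the first 3 of each list and up to 6 called members per list and direction. Any other gene is said to be named after its values were seen. The comparison and the lists were chosen with earlier results of these data known. Promoters and their coordinates were RefSeq's for GRCm38.p6. Promoters on chromosome 18, such as that of Hspa9, were left out of all motif searches and of the 27025 genes.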

Additional observations from a re-analysis of the deposited data

How the results depend on the processing

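Calls in total numbered 1682 and lay between 1186 and 2451 under the alternatives. Higher calls numbered 637, against 1280 by DESeq2, 1036 with the 15 microglia libraries only and 750 with DESeq2's size factors, which moved the median fold change of all genes from 0 to 0.0794. Lower calls numbered 1045, against 1571 with no bar on the fold change. Leaving out 1 library gave 1186 to 2119 calls, 301 to 904 of them higher and 853 to 1215 lower. The interaction gave 0 genes in each edgeR setting and 25 by DESeq2. The causes were not tested. Of 174 named genes called, 139 were called in all 20 settings and none changed direction. Same-numbered libraries of the 2 times did not deviate together (r = -0.0174, -0.0291 and -0.0658), so the numbers were not taken as pairs. A replicate block gave 1732 calls, 694 higher and 1038 lower. Counting error limits what can be said of genes near the floor of 3 counts.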
